A study of Mus musculus with 14 samples.

Results

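Intraepithelial lymphocytes are T cells that lie between the epithelial cells of the gut wall. The 40 genes described here are known genes of these cells and were chosen by name, from 55889 genes counted in mice kept without dextran sulfate sodium (DSS) and 54721 genes counted in mice after DSS. The rule uses no measured value, though it was set with earlier results of these data known, and both Cd8a and Itgae, the markers given for the cells, were read in every mouse. All 40 were found in both tables, 39 by the same symbol and Cd244 under its synonym Cd244a. The mice were C57BL/6N, and the study's methods give littermates of 8 to 12 weeks and both sexes. Wild-type (WT) mice were compared with miR-29ab1-/- mice (KO), which lack the Mir29a and Mir29b-1 hairpins in every cell through a germline deletion, so that the genotype of the lymphocytes and that of the epithelium around them changed together. Without DSS, colon RNA of 4 WT and 4 KO mice was sequenced, and after 3 days of 3.5% DSS, which injures the lining of the colon, that of 3 WT and 3 KO mice. The study states that a WT and a KO sample were left out of its analysis, and does not name the experiment. The DSS mice are numbered here by the order of their columns in the table, since those columns show the group but not which labelled mouse they came from.

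Intraepithelial lymphocytes carry either an alpha beta or a gamma delta T cell receptor, which signals through the CD3 chains, and many of them carry CD8. They are held in the epithelium by the integrin CD103, whose alpha chain is encoded by Itgae and which binds E-cadherin, and they store granzymes and perforin, with which they kill stressed or infected epithelial cells. A microRNA pairs through its seed (bases 2 to 8) with a matching site in the 3′ untranslated region (UTR) of an mRNA and lowers its stability or translation.

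The mature microRNAs of the deleted locus are shown because their seed defines the sites looked for in the members. The seed is in capitals and the sequences are those of RefSeq on GRCm38.p6. They lie on the minus strand at chr6:31062673-31062694 for miR-29a-3p and chr6:31063025-31063047 for the copy of miR-29b-3p that was deleted. The remaining family member, miR-29c-3p, lies at chr1:195037600-195037621 next to a second copy of miR-29b-3p and has the same seed.
mmu-miR-29a-3p: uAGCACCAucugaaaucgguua
mmu-miR-29b-3p: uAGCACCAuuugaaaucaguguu
mmu-miR-29c-3p: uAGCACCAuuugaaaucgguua

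Without DSS the libraries held 17177177 to 18185020 gene reads for WT and 14231157 to 16100607 for KO mice, so that every WT library was larger, and after DSS the 6 libraries held 20076719 to 23153149. Levels are given as CPM, the counts scaled for library size with TMM factors. A count of 3 reads, the smallest taken as seen, was 0.165 to 0.211 CPM without DSS and 0.13 to 0.149 CPM after DSS with CPM taken before the TMM factors, for counting error only. The hairpins themselves had at most 1 read in any mouse and 0 in every WT mouse, so that they could not check the labels. Lncpint, a noncoding RNA beside them, lay between 0.417 and 1.28 CPM for WT against 93.7 and 201 CPM for KO mice without DSS, and between 0.251 and 0.586 against 29.4 and 60.7 CPM after DSS, so that each library stood on the side of its label. The labels name crypts of the small intestine and the study names colon. The colon gene Hoxb13 was at 98.8 CPM or more in every mouse and the small intestine genes Lct and Apoa4 at 0.33 CPM or less. A list of 13 small intestine genes summed to 182 to 464 CPM, of which Fabp2, a fatty acid binding protein, had 145 to 403 CPM. Smooth muscle genes summed to 3.61 CPM or less and epithelial genes to 10200 CPM or more, so that the libraries held little muscle RNA. Which layer of the gut was taken is not settled by the sources used here.

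Per length, the cytotoxic and receptor genes led the list. In WT mice without DSS, the mean level in CPM per kilobase of gene length was highest for Gzma at 34.0, followed by Gzmb (18.6), Cd7 (13.9), Trbc2 (10.3) and Nkg7 (10.1). Gzma and Gzmb encode granzymes, Nkg7 a protein of the cytotoxic granule, Cd7 a lymphocyte surface receptor and Trbc2 a constant region of the T cell receptor beta chain. Of the other members, 20 lay between 1 and 10 on this scale and 15 below 1, the lowest being Eomes, a transcription factor of memory and natural killer cells, at 0.158. Gzma was also the highest in KO mice (29.7) and in both genotypes after DSS (26.9 in WT and 32.6 in KO mice). The libraries held the RNA of all cells of a sample, so that more of these cells and more RNA per cell cannot be told apart, and many members are also expressed by T cells outside the epithelium.

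The members rose and fell together from mouse to mouse, far more widely than the median gene tested. Without DSS, the summed level of the 40 genes was 658 CPM in WT 1, 165 in WT 2, 282 in WT 3 and 158 in WT 4. It was 135 CPM in KO 1, 131 in KO 2, 337 in KO 3 and 733 in KO 4. WT 1 and KO 4 thus held the highest level of their genotype, followed by WT 3 and KO 3, and each genotype had mice at both ends of the range. WT 1 was the highest WT mouse for 40 of 40 members, and KO 4 the highest KO mouse for 38 of 40. The ratio of the highest to the lowest of the 8 mice had a median of 6.94 over the members, from 4.51 to 25.5, where the median over all tested genes was 1.61. The SD of log2 CPM between mice of a genotype had a median of 1.06 over the members and 0.231 over all tested genes. A wide spread was not particular to the members. Genes of helper and regulatory T cells summed to 0.895 to 5.51 CPM among WT and 2.38 to 10.4 CPM among KO mice. B cell genes summed to 7.98 to 14.8 CPM among WT and 4.13 to 28.7 CPM among KO mice.

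After DSS the members again rose and fell together, in a narrower range. The summed level was 193 CPM in WT 1, 160 in WT 2 and 317 in WT 3, and 488 CPM in KO 1, 340 in KO 2 and 226 in KO 3. WT 3 overlapped the KO range, and KO 3 lay between the WT mice. WT 3 was the highest WT mouse for 38 members and KO 1 the highest KO mouse for 36. The ratio of the highest to the lowest of the 6 mice had a median of 3.45 over the members and 1.5 over all tested genes. Mice before and after DSS were not compared, because the treatment coincides with the table.

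**Figure D1:**
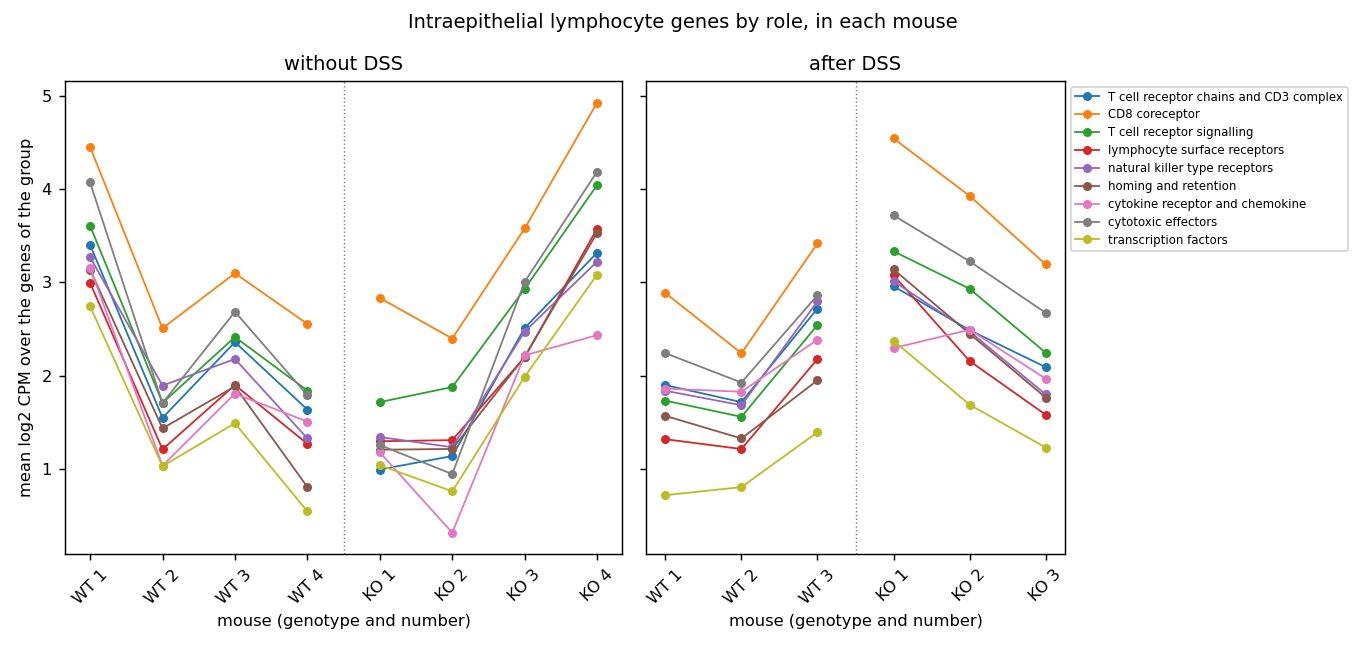
Mean log2 CPM (vertical axis) of each role group of the 40 genes in each mouse (horizontal axis), without DSS on the left and after DSS on the right. Lines join the values of 1 role group to guide the eye, since mice have no order. Without DSS every role group peaks in WT 1 among WT mice and in KO 4 among KO mice, where the summed level of the 40 genes was 658 and 733 CPM.

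Which of these genes differed between the genotypes without DSS was asked first. The quasi-likelihood test of edgeR was run over all 15441 genes with enough reads, among them 39 members (Eomes had too few reads). Fold changes are of KO over WT on the log2 scale, and the value after ± is the standard error. An unadjusted p under 0.05, the cutoff of the study, was used beside an adjusted p (Benjamini-Hochberg over all genes tested) under 0.05. At the unadjusted cutoff, 0 members were higher in KO mice, against 2.09% of all genes, and 1 member, Trdc, was lower, against 1.58%. At the adjusted cutoff 0 members were called, against 0.0194% of all genes (3 genes). The log2 fold change was above 0 for 28 of 39 members, with a median of 0.20, and above 0 for 49.5% of all genes, with a median of −0.0016. That balance rested on single mice. Without KO 4, 2 of the 39 were above 0 and the median was −0.54, and without WT 1, 36 were above 0 and the median was 0.75. With both of these mice left out, 22 were above 0 and the median was 0.056. For 0 of the 39 did the levels of all KO mice lie above or below those of all WT mice, against 1.11% and 0.92% of all genes.

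The gamma delta receptor gene was the 1 member called lower, at the unadjusted cutoff only. Trdc, the constant region of the delta chain (chr14:54142851-54148868), was at 9.25, 1.37, 2.44 and 1.73 CPM in WT mice 1 to 4 and at 0.473, 0.548, 1.9 and 1.79 CPM in KO mice 1 to 4. WT 1 stood far above all others, while the other WT mice overlapped KO 3 and KO 4. The log2 fold change was −1.65 ± 0.72 (unadjusted p = 0.0472, adjusted p = 1.0 by edgeR's quasi-likelihood test). Without WT 1 it was −0.64 (unadjusted p = 0.239 from the same test), and the call was also lost without WT 3, KO 1 or KO 2 and with no filter on low counts (unadjusted p = 0.0859 by edgeR).

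The alpha beta receptor chains and CD3 genes were not called. Trac, the constant region of the alpha chain (chr14:54220521-54224206), was at 11.1, 2.8, 5.11 and 3.23 CPM in WT mice and at 2.64, 3.17, 6.67 and 11.9 CPM in KO mice, a log2 fold change of 0.13 ± 0.58. Trbc2 was at 13.7, 4.17, 5.55 and 5.07 CPM in WT mice and at 2.7, 3.47, 10.9 and 22.1 CPM in KO mice, a log2 fold change of 0.45 ± 0.71. In both, WT 1 and KO 4 were the top mice and the genotypes overlapped over most of their range. Trbc1 and Trbc2 are near-identical copies, and how the authors' counting split their reads is not stated. Cd3e, Cd3g, Cd3d and Cd247, which encode the signalling chains of the receptor, had log2 fold changes from −0.20 to 0.17, each smaller than its standard error.

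Cd8a and Itgae did not differ beyond the spread between mice. Cd8a, the alpha chain of CD8 (chr6:71373427-71379173), was at 56.1, 13.8, 26.2 and 14.9 CPM in WT mice and at 12.2, 13.7, 31.2 and 61 CPM in KO mice. Itgae (chr11:73090583-73147446) was at 57.8, 14.3, 24.1 and 12.3 CPM in WT mice and at 10.6, 11.3, 19.6 and 55.8 CPM in KO mice. For both genes 1 WT and 1 KO mouse lay at 55.8 CPM or more and all other mice at 31.2 CPM or less. Their log2 fold changes were 0.09 ± 0.66 and −0.16 ± 0.71. Cd8b1, the beta chain of CD8, which is carried by conventional CD8 T cells but not by cells with CD8 alpha homodimers, had a log2 fold change of 0.71 ± 0.70 (unadjusted p = 0.342 by edgeR's quasi-likelihood test).

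The leading genes of the remaining roles behaved alike without DSS. Lck, the kinase that acts first on the receptor, was at 28.1, 12.2, 15.8 and 10.03 CPM in WT mice and at 6.22, 9.13, 19.6 and 36.4 CPM in KO mice. Cd7 was at 30.9, 9.96, 13.5 and 8.47 CPM in WT mice and at 5.27, 2.74, 14.6 and 26.5 CPM in KO mice. Klrd1, which encodes CD94, the partner chain of NKG2 receptors, was at 10.02, 3.94, 4.11 and 3.23 CPM in WT mice and at 2.7, 2.07, 4.89 and 7.67 CPM in KO mice. In each of them KO 1 and KO 2 were at or near the bottom and WT 1 and KO 4 at the top. Gzma was at 79.3, 12.4, 31.2 and 13.8 CPM in WT mice and at 6.36, 4.93, 32.9 and 75.4 CPM in KO mice. Ikzf3, a transcription factor of lymphocytes, was at 22.9, 6.2, 9.32 and 4.35 CPM in WT mice and at 4.87, 4.08, 12.4 and 28.3 CPM in KO mice. Xcl1, a chemokine for cross-presenting dendritic cells, was at 3.8, 0.716, 1.44 and 1.78 CPM in WT mice and at 0.947, 0.548, 2.35 and 1.29 CPM in KO mice. Xcl1 was the exception in that KO 3, not KO 4, was the highest KO mouse. The log2 fold changes of these 6 genes ran from −0.59 for Xcl1 to 0.21 for Ikzf3, with standard errors of 0.48 or more.

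By role, all 7 members of T cell receptor signalling and all 3 tested transcription factors had a log2 fold change above 0 without DSS, with medians of 0.37 and 0.23, and both members of the cytokine and chemokine group had one below 0, with a median of −0.32. The largest positive value was 0.91 ± 0.81 for Cd5, a receptor that dampens T cell receptor signals, followed by 0.84 ± 0.64 for Cxcr6, the receptor for the epithelial chemokine CXCL16. None of these passed a cutoff. With WT 1 and KO 4 left out, a choice made after the values were seen, 3 members were called higher, Cd5 (1.08), Cd6 (1.10) and Cxcr6 (1.06), each with an adjusted p of 1.0 from edgeR's quasi-likelihood test, and 0 lower.

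**Figure D2:**
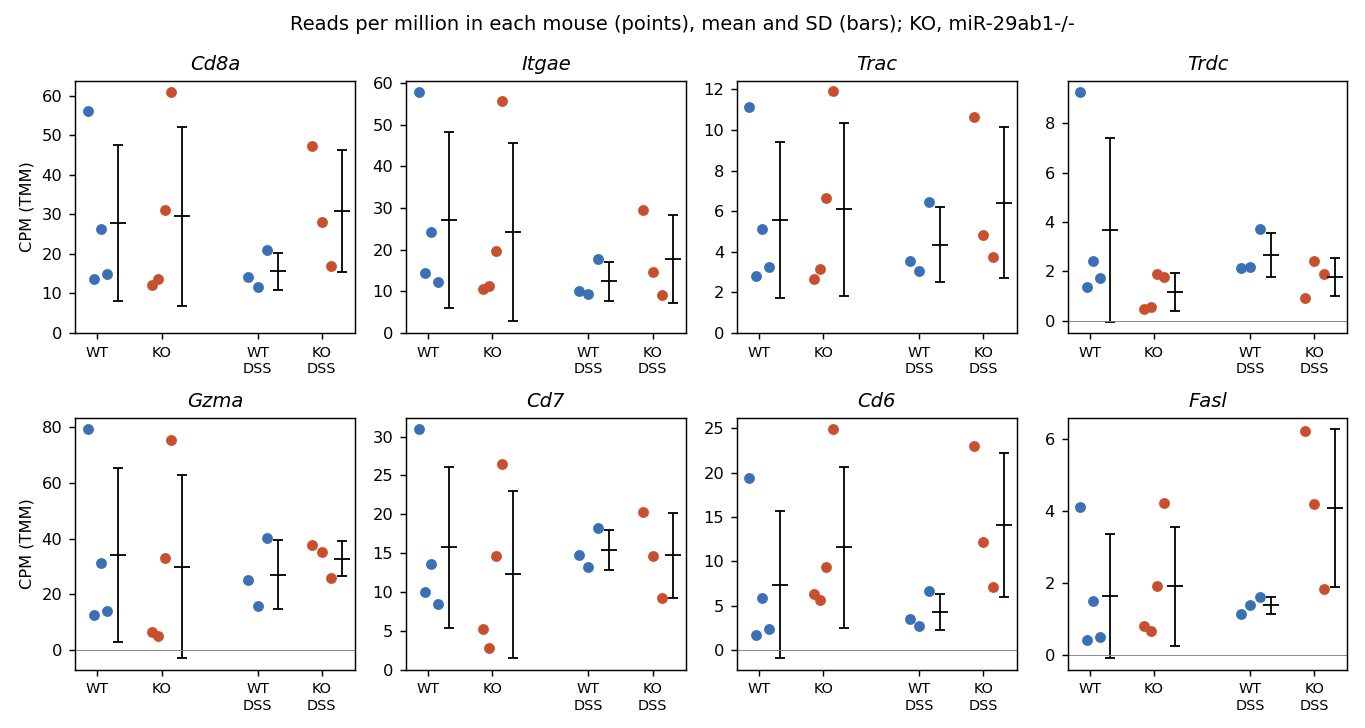
Level in CPM (vertical axis) of selected members in single mice, by genotype and experiment, with points for mice and bars for the mean and SD (4 mice a group without DSS, 3 after DSS). Without DSS the groups overlap for every gene shown, and after DSS Cd6 lay at 2.76 to 6.64 CPM for WT and 7.12 to 23.01 CPM for KO mice.

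Since the amount of lymphocyte RNA differed so much between mice, ratios of 2 members within a mouse were compared as well. A ratio does not depend on library size or on how many such cells a sample held, but does depend on which of them it held. Of 8 ratios per experiment, tested with a two-sided exact permutation test over mice, the ratio of Trdc to Trac reads was the one whose genotypes did not overlap without DSS. It was 0.832, 0.489, 0.478 and 0.534 in WT mice and 0.179, 0.173, 0.286 and 0.151 in KO mice. Every KO mouse had fewer delta chain reads per alpha chain read than every WT mouse, also the 2 mice rich in lymphocyte RNA. The ratios rest on few reads, 337 for Trdc and 761 for Trac over all mice without DSS, with Trdc lowest in KO 1 and KO 2. The mean ratio in KO mice was 0.346 of that in WT mice on the log2 scale, a difference of −1.53 (exact permutation p = 0.029, the smallest that 4 mice against 4 can give, and 0.229 adjusted over the 8 ratios). The differences of the other 7 ratios had exact permutation p values of 0.0571 to 0.971.

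The gamma chain genes, which pair with the delta chain, are no members and were looked at after the members' values were seen, so that no p-values are given. Tcrg-C1 reads per Trac read were 0.95, 1.36, 1.16 and 0.724 in WT mice and 0.385, 0.404, 0.543 and 0.494 in KO mice. Tcrg-C4 reads per Trac read were 0.955, 0.894, 0.707 and 0.966 in WT mice and 0.513, 0.462, 0.533 and 0.458 in KO mice. Both ratios were lower in every KO mouse than in every WT mouse, by 1.16 and 0.82 on the log2 scale in the mean. Tcrg-C2 reads per Trac read overlapped, with 1.41 to 1.59 in WT mice and 0.923 to 1.47 in KO mice. The gamma constant genes resemble each other in sequence, so that reads can be shared among them.

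Ratios of other members to Cd3e were compared between the genotypes too, and those among the 8 ratios did not pass the unadjusted cutoff. Gzmb reads per Cd3e read were 2.87, 1.99, 3.28 and 3.42 in WT mice and 1.46, 1.13, 1.91 and 2.48 in KO mice, a log2 difference of −0.76 (exact permutation p = 0.0571, adjusted p = 0.229). KO 4 overlapped WT 2. Gzma to Cd3e had a log2 difference of −0.69 (exact permutation p = 0.171). Cd8a to Cd3e (−0.063) and Cd160 to Cd3e (−0.0076) had differences near 0, and Itgae to Cd3e one of −0.31 (exact permutation p = 0.143). Cd7 to Cd3e was 1.53, 1.7, 1.69 and 2.67 in WT mice and 1.32, 0.662, 1.4 and 1.21 in KO mice, with no overlap. This ratio was chosen after the values were seen, so that no p-value is given for it.

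For all members, the genotypes were also compared with the mean log2 CPM of Cd3e, Cd3g, Cd3d and Cd247 in each mouse added to the model. This choice was made after the data were seen. Of the 35 other members, 8 were then higher in KO mice (Cd5, Cd6, Cd8b1, Cxcr6, Fyn, Lat, Runx3 and Sh2d2a), against 2.73% of all genes, and 4 lower (Trdc, Cd7, Gzma and Gzmb), against 1.85%. The log2 fold changes at equal CD3 level were 1.02 for Cd5 and 0.92 for Cxcr6, and −1.43 for Trdc and −0.57 for Gzmb. By role, those higher at equal CD3 level were the surface receptors Cd5 and Cd6, the signalling genes Fyn, Lat and Sh2d2a, Cd8b1 and Cxcr6. Runx3, a transcription factor of CD8 lineage cells, was also among them. The lower ones were the delta chain, the granzymes and Cd7, another surface receptor. At the adjusted cutoff 0 of the 35 passed, against 0.0259% of all genes, with adjusted p of 0.409 or more from edgeR's quasi-likelihood test.

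**Figure D3:**
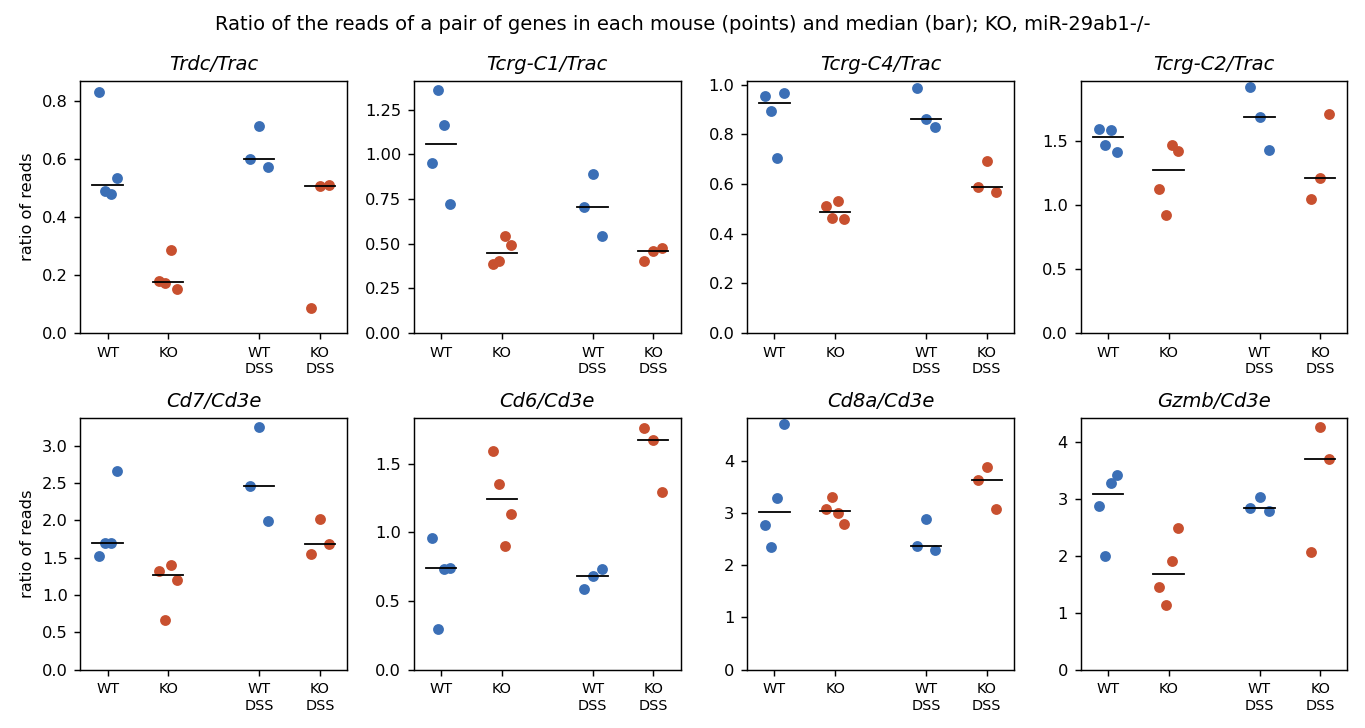
Ratio of the reads of 2 genes (vertical axis, linear from 0) in single mice, by genotype and experiment, with a point per mouse and a bar for the median. Without DSS the Trdc to Trac ratio of the 4 KO mice (0.151 to 0.286) lies below that of the 4 WT mice (0.478 to 0.832).

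After 3 days of DSS more of the members were higher in KO mice. Of the 40 members, all tested among 14908 genes, 15 were higher at the unadjusted cutoff (37.5%), against 3.98% of all genes, and 0 were lower, against 3.25%. At the adjusted cutoff 0 were called, against 0.0134% of all genes (2 genes). The log2 fold change was above 0 for 37 of 40 members, with a median of 0.76, and for 49.0% of all genes, with a median of −0.0051. For 6 members (Cd5, Cd6, Cd69, Cxcr6, Fasl and Txk) every KO mouse was above every WT mouse, as for 5.33% of all genes tested, and for 0 members every KO mouse was below, against 6.28%. The count of 15 moved with single mice. It was 5 without WT 1, WT 2 or KO 1, 10 without KO 2, 22 without KO 3 and 24 without WT 3. When all 14 mice entered a single fit, in which the wide spread of the mice without DSS is shared, 0 members passed.

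Receptors that tune T cell receptor signals had the highest fold changes. Cd6, which binds CD166 on epithelial and other cells (chr19:10789341-10830058), was at 3.56, 2.76 and 6.64 CPM in WT mice and at 23.01, 12.1 and 7.12 CPM in KO mice. Its log2 fold change was 1.71 ± 0.51 (unadjusted p = 0.0137, adjusted p = 0.646 by edgeR's quasi-likelihood test). Cd5, next to it on the chromosome (chr19:10717116-10739002 in the table of mice without DSS, and a shorter span in that of mice after DSS), was at 1.51, 2.05 and 3.42 CPM in WT mice and at 12.8, 4.24 and 4.0 CPM in KO mice, a log2 fold change of 1.59 ± 0.53 (adjusted p = 0.646 by the same edgeR test). In both, KO 1 was far above the rest, and the lowest KO mouse was only just above the highest WT mouse. Cd6 was called in 5 of the 6 fits that left out 1 mouse, and Cd5 in 3. The other 3 surface receptors were not called. Cd2 had a log2 fold change of 0.56 ± 0.45, Cd27 of 0.13 ± 0.60 and Cd7 of −0.067 ± 0.27.

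Cd7, the leading gene of its role, had a log2 fold change near 0, as had Xcl1 among the leading genes. Cd7 was at 14.8, 13.2 and 18.2 CPM in WT mice and at 20.2, 14.7 and 9.24 CPM in KO mice. WT mice lay inside the range of KO mice.

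Among the receptor chains, Cd247 and Trbc2 were higher and the delta chain was not. Cd247, the zeta chain that carries most of the signalling motifs of the receptor, was at 1.67, 1.67 and 2.85 CPM in WT mice and at 5.71, 4.98 and 2.79 CPM in KO mice, a log2 fold change of 1.12 ± 0.35. Trbc2 was at 3.52, 4.23 and 7.83 CPM in WT mice and at 11.1, 9.12 and 6.99 CPM in KO mice, a log2 fold change of 0.81 ± 0.32. In both genes KO 3 fell below WT 3 and the other KO mice were above all WT mice. Trdc was at 2.13, 2.18 and 3.7 CPM in WT mice and at 0.926, 2.44 and 1.92 CPM in KO mice, a log2 fold change of −0.60 ± 0.40, the lowest of all 40. Cd3e, Cd3g, Cd3d, Trac and Trbc1 had log2 fold changes from 0.01 to 0.67 and were not called. Cd247 was called in each of the 6 fits that left out 1 mouse. It overlaps Pou2f1 on the other strand, which had 1974 reads with its other neighbours against 412 for Cd247 over the 6 mice, and whether counting used strand is not stated.

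For CD8, Cd8b1 was at 3.73, 1.8 and 5.36 CPM in WT mice and at 11.4, 8.11 and 4.83 CPM in KO mice, a log2 fold change of 1.16 ± 0.44 (unadjusted p = 0.0299 by edgeR's quasi-likelihood test). Cd8a was at 14.2, 11.7 and 20.9 CPM in WT mice and at 47.4, 28.2 and 16.9 CPM in KO mice, a log2 fold change of 0.98 ± 0.42 (unadjusted p = 0.0572 from the same test). The order of mice was the same in both chains, with KO 3 among the WT mice. The ratio of Cd8b1 to Cd8a was 0.262, 0.154 and 0.257 in WT mice and 0.24, 0.288 and 0.286 in KO mice, so that the genotypes overlapped. Cd8a reads per Cd3e read were 2.36, 2.89 and 2.29 in WT mice and 3.62, 3.88 and 3.08 in KO mice, a log2 difference of 0.49 with no overlap (exact permutation p = 0.1, the smallest that 3 mice against 3 can give, adjusted p = 0.4).

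All 7 members of T cell receptor signalling had a log2 fold change above 0 after DSS, with a median of 0.86, and 4 were called. Lat, the adaptor on which the signalling complex is built, was at 2.8, 2.26 and 6.69 CPM in WT mice and at 12.2, 11.0 and 5.33 CPM in KO mice, a log2 fold change of 1.28 ± 0.48. Sh2d2a, a T cell adaptor that binds Lck, was at 2.72, 2.39 and 5.55 CPM in WT mice and at 10.9, 8.22 and 4.2 CPM in KO mice, a log2 fold change of 1.13 ± 0.43. In both, WT 3 was above KO 3. Txk, a kinase of the Tec family, was at 1.51, 1.46 and 2.47 CPM in WT mice and at 3.96, 3.87 and 2.83 CPM in KO mice, a log2 fold change of 0.97 ± 0.31. Fyn, a kinase related to Lck, was at 6.4, 5.73 and 10.7 CPM in WT mice and at 17.7, 12.7 and 9.49 CPM in KO mice, a log2 fold change of 0.80 ± 0.30. Txk did not overlap and was called in each of the 6 fits without 1 mouse, while Fyn overlapped. Lck itself was at 11.1, 9.33 and 15.6 CPM in WT mice and at 26.4, 16.9 and 11.0 CPM in KO mice, and its log2 fold change of 0.59 ± 0.33 did not pass. Zap70, the kinase that binds the phosphorylated CD3 chains, had 0.86 ± 0.38 (unadjusted p = 0.0522 by edgeR's quasi-likelihood test) and Themis 0.77 ± 0.46.

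Of the genes for homing and retention, the 3 called were Cxcr6, Ccr9 and Cd69. Cxcr6 was at 2.13, 2.05 and 3.94 CPM in WT mice and at 9.01, 5.89 and 4.04 CPM in KO mice, a log2 fold change of 1.22 ± 0.37 (unadjusted p = 0.0093 by edgeR's quasi-likelihood test). Cd69, which keeps T cells in tissue, was at 1.88, 1.84 and 2.09 CPM in WT mice and at 4.79, 3.45 and 2.41 CPM in KO mice, a log2 fold change of 0.87 ± 0.31. Neither overlapped, and the WT mice were close together for Cd69. Ccr9, the receptor for the gut chemokine CCL25, was at 1.63, 0.921 and 1.33 CPM in WT mice and at 4.48, 2.76 and 1.29 CPM in KO mice, a log2 fold change of 1.12 ± 0.46, with KO 3 among the WT mice. Cxcr6 was called in each of the 6 fits without 1 mouse. Cxcr6 and Ccr9 lie on chromosome 9 across genes of the other strand with more reads, namely Fyco1 (4488 against 566 for Cxcr6) and Lztfl1 and Slc6a20a with others (4053 against 259 for Ccr9). Itgae was at 10.1, 9.33 and 17.8 CPM in WT mice and at 29.6, 14.7 and 9.24 CPM in KO mice. Its lowest and highest mice were both KO mice, and the log2 fold change of 0.52 ± 0.48 did not pass. Itgae reads per Cd3e read differed by 0.011 on the log2 scale between the genotypes.

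All 5 cytotoxic effectors had a log2 fold change above 0. The death ligand and perforin were called and the granzymes and Nkg7 were not, and the difference between them was not tested. Fasl, which triggers death through FAS on target cells, was at 1.13, 1.38 and 1.61 CPM in WT mice and at 6.23, 4.19 and 1.83 CPM in KO mice, a log2 fold change of 1.56 ± 0.44 (unadjusted p = 0.00585, adjusted p = 0.646 by edgeR's quasi-likelihood test). Prf1, which encodes perforin, was at 0.795, 0.586 and 1.14 CPM in WT mice and at 3.65, 1.64 and 1.12 CPM in KO mice, a log2 fold change of 1.34 ± 0.50. Fasl did not overlap and had the smallest p of the 40, while KO 3 lay among the WT mice for Prf1. Gzma, the most abundant member, was at 25.2, 15.8 and 40.2 CPM in WT mice and at 37.7, 35.0 and 25.7 CPM in KO mice, a log2 fold change of 0.28 ± 0.34. Gzmb had one of 0.51 ± 0.27 and Nkg7 one of 0.88 ± 0.38 (unadjusted p = 0.0528 by edgeR's quasi-likelihood test). Fasl was called in each of the 6 fits without 1 mouse. Its adjusted p was 0.0386 from edgeR's quasi-likelihood test with no filter on low counts and 0.0492 without KO 3, the only settings in which that test took a member past the adjusted cutoff, and DESeq2 took Cd6 past it (adjusted p = 0.0142).

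Of the transcription factors, Runx3 was at 2.55, 1.72 and 4.7 CPM in WT mice and at 8.44, 6.2 and 3.58 CPM in KO mice, a log2 fold change of 1.02 ± 0.43 (unadjusted p = 0.0437 by edgeR's quasi-likelihood test). Ikzf3 was at 3.6, 3.93 and 6.55 CPM in WT mice and at 14.3, 7.32 and 4.41 CPM in KO mice, a log2 fold change of 0.89 ± 0.44. KO 3 lay among the WT mice for both. Tbx21 and Eomes, which direct effector programmes, had log2 fold changes of 0.73 ± 0.39 and 0.76 ± 0.49. The natural killer type receptors were not called, with log2 fold changes of 0.30 ± 0.40 for Cd160, 0.35 ± 0.42 for Cd244 and 0.33 ± 0.44 for Klrd1. Klrd1 was at 3.22, 3.43 and 8.49 CPM in WT mice and at 7.82, 7.42 and 3.83 CPM in KO mice, with a WT mouse as the highest. Xcl1 was at 2.09, 1.97 and 2.56 CPM in WT mice and at 1.96, 2.28 and 2.08 CPM in KO mice. That was the narrowest range of any member, and its log2 fold change was −0.07 ± 0.27. Il2rb, a receptor chain for interleukins 2 and 15, had one of 0.52 ± 0.30.

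**Figure D4:**
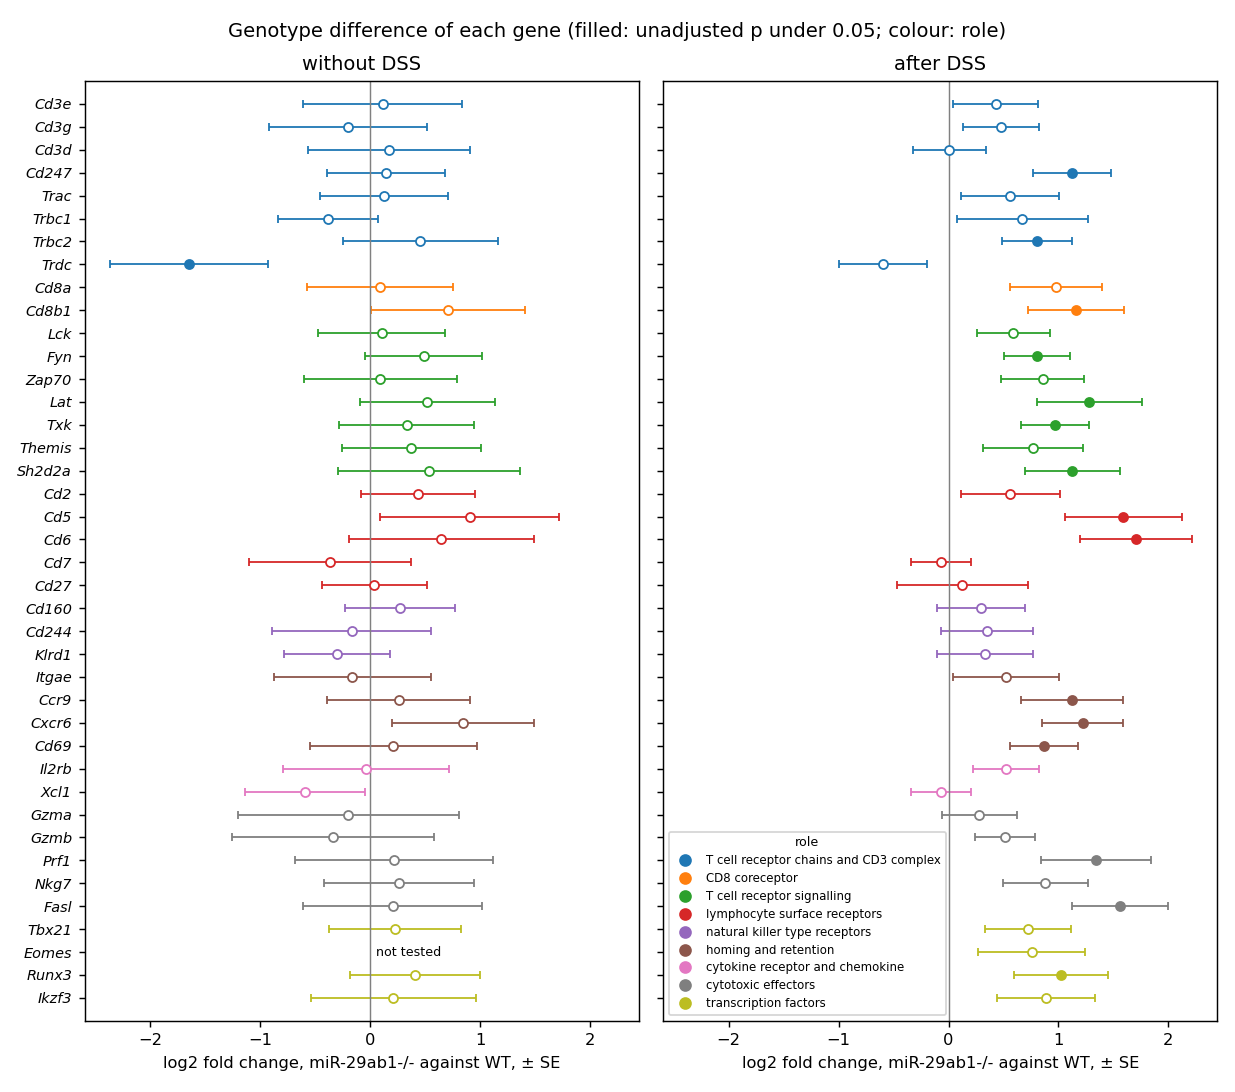
Log2 fold change of KO over WT (horizontal axis) with its standard error for each member (vertical axis), without DSS (39 members, Eomes not tested) and after DSS (40 members), coloured by role. Without DSS the values lie between −1.65 for Trdc and 0.91 for Cd5 with wide errors, and after DSS 37 of 40 lie above 0, up to 1.71 for Cd6.

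At equal CD3 level, fewer members passed the cutoff after DSS. With the CD3 level of each mouse in the model, 3 of the 36 other members were higher in KO mice (Cd6 by 0.89, Cxcr6 by 0.66 and Lat by 0.65 on the log2 scale), against 1.35% of all genes, and Cd7 was lower (−0.50), against 1.29%. At the adjusted cutoff 0 of the 36 passed, against 0.00671% of all genes. These 4 genes were also among the members called in the same direction at equal CD3 level without DSS. The mean log2 CPM of the CD3 genes was 2.12, 1.82 and 2.88 in WT mice and 3.27, 2.75 and 2.35 in KO mice, so that it moved with the genotype in all but KO 3 and WT 3.

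The Trdc to Trac ratio after DSS was 0.6, 0.712 and 0.574 in WT mice and 0.087, 0.505 and 0.511 in KO mice. All KO mice were again below all WT mice, though 2 of them by little, and the log2 difference of −1.14 had an exact permutation p of 0.1, the smallest possible (adjusted p = 0.4). Without KO 1 the difference was −0.30. Tcrg-C1 and Tcrg-C4 reads per Trac read did not overlap either, with 0.544 to 0.89 against 0.401 to 0.478 and with 0.831 to 0.988 against 0.567 to 0.692. Cd6 reads per Cd3e read were 0.59, 0.68 and 0.729 in WT mice and 1.76, 1.67 and 1.3 in KO mice, a log2 difference of 1.23. Every KO mouse thus had more Cd6 per Cd3e than any WT mouse, while without DSS the same ratio overlapped (0.296 to 0.959 in WT mice and 0.902 to 1.59 in KO mice). The gamma chain and Cd6 ratios were chosen after the values were seen and are given without p-values. The ratios were not tested for a difference between the experiments.

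Whether the genotype effect after DSS differed from that without DSS was tested over all 14 mice with the difference of the 2 effects. Of the 40 members, 0 passed the unadjusted cutoff in edgeR's quasi-likelihood test, against 4.03% of the 16370 genes tested (1.73% with the higher and 2.3% with the lower effect after DSS), and 0 passed the adjusted cutoff, against 0%. The effect after DSS was the higher of the 2 for 39 of 40 members, with a median difference of 0.60 on the log2 scale. For Cd8a the difference was 0.89 ± 0.90 and for Fasl 1.36 ± 1.06. Without WT 1 of the mice without DSS, 17 of 40 were above 0 with a median of −0.025, and without KO 4, 40 were above 0 with a median of 1.27 and Cd247 and Ccr9 passed the unadjusted cutoff. For Fasl and Cd8a, as for the other members, a difference between the 2 effects was not detectable with these numbers of mice.

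Other genes of the pathway and of the cells around followed the members in part. Of 20 other genes of T cell receptor signalling, such as Lcp2 and Vav1, 18 of 19 tested had a log2 fold change above 0 without DSS, with a median of 0.23, and Vav1 was called (0.51). After DSS it was 18 of 20, with a median of 0.57, and 5 were called higher, the smallest p belonging to Cd28 (1.87), Grap2 (1.00) and Ubash3a (1.40). Of 22 epithelial ligands and survival factors for these cells, such as Il15, Cxcl16 and Cdh1 (E-cadherin, the ligand of CD103), 0 were called without DSS. After DSS Btnl6, a butyrophilin-like gene of the gut epithelium (0.62), and Cd48, the ligand of Cd244 (0.76), were higher and Tnfrsf14, the ligand of Cd160, was lower (−0.43), with a median of 0.08 over the 21 tested. Cd48 is also expressed by lymphocytes. Epithelial genes such as Epcam and Krt20 gave 0 calls in either experiment. Of 12 genes of natural intraepithelial lymphocytes, among them the member Cd244, 5 of 10 tested were above 0 without DSS (median −0.015, 1 called higher). After DSS it was 9 of 10 (median 0.30, 0 called). Of 7 genes of gamma delta T cells, the 4 tested were all below 0 without DSS (median −0.42). After DSS 2 of 4 were above 0 (median −0.027), and 0 were called in either experiment.

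Markers of some other blood cells also differed between the genotypes after DSS, in both directions. A gene could enter the test through reads in the mice of 1 genotype alone. For lists with few reads, the count of genes above or below 0 can thus follow from that filter. Genes of helper and regulatory T cells, which are not typical of the epithelium, were above 0 for 6 of 6 tested, of 8 listed. Icos at 2.75, Ctla4 at 2.63 and Cd28 at 1.87 were called. Cd28 is also counted among the T cell receptor signalling genes above. Their summed level lay between 3.01 and 4.32 CPM among WT and between 5.33 and 18.0 CPM among KO mice, and Foxp3 was at 0.167 CPM or less in WT mice and 0.375 to 1.22 CPM in KO mice. Cd4 reads per Cd8a read were 0.0353 to 0.0571 in WT mice and 0.0217 to 0.0904 in KO mice, so that Cd8a reads outnumbered Cd4 reads in every mouse. Neutrophil genes were above 0 for 5 of 5 tested, with S100a8 called (3.19) at 0.167, 1.0 and 1.47 CPM in WT mice and 9.32, 13.9 and 0.874 CPM in KO mice. The summed neutrophil level was 45.5 to 98.1 CPM among WT and 90.6 to 242 CPM among KO mice. In S100a8, as in most members, KO 1 and KO 2 were high and KO 3 was not. Il7r, a receptor of naive and memory T cells (2.23), was the 1 called of 6 tested genes of naive and circulating T cells, of which 5 were above 0. Klrb1c, which encodes NK1.1 (1.76), was the 1 called of 3 tested natural killer cell genes, all above 0. Mast cell genes were below 0 for 4 of 4 tested, with Mcpt1 (−1.91), Mcpt2 (−1.79) and Kit (−0.37) called and a summed level of 58.1 to 65.2 CPM among WT and 34.5 to 48.7 CPM among KO mice. Group 3 innate lymphocyte genes were below 0 for 3 of 3 tested, with Kit, shared with the mast cell list, called. B cell genes were below 0 for 2 of 2 tested, of 10 listed, with a median of −1.32 and 0 called. Their summed level was 1.72 to 10.6 CPM among WT mice, with a median of 1.97, and 1.46 to 2.65 CPM among KO mice. The WT median thus lay within the KO range. Macrophage and dendritic cell genes were above 0 for 7 of 8 tested, with 0 called. The part of these cells in the members' values was not tested.

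A sequence feature that the choice of members did not use is the miR-29 site, searched on the sense strand of the annotated 3′ UTRs (GENCODE vM21 on GRCm38) as TGGTGCT, the complement of the seed, and as TGGTGCTA, which adds the base opposite position 1 and contains the former. Of the members tested after DSS, 38 had an annotated 3′ UTR (Trac and Trbc1 had none), and 6 of them, or 15.8%, held TGGTGCT. Of 12770 protein-coding genes tested, 16.1% held it, a share close to that of the members. The longer site was in 1 member, Ccr9 (2.63%, against 3.3%). Without DSS it was 5 of 37 members (13.5%) and 16.1% of 12780 genes. The 6 members were Trdc, Cd7, Cd244, Ccr9, Tbx21 and Eomes. The site of Trdc, that of Cd7 and the longer of the 2 sites of Ccr9 are shown because these genes were called in a comparison above, with the match in capitals and 10 bases on each side.
Trdc, chr14:54146332-54146338, plus strand: ccagtaaaaaTGGTGCTtgcattgtct
Cd7, chr11:121036920-121036926, minus strand: aattccccctTGGTGCTtctgggtggg
Ccr9, chr9:123780724-123780731, plus strand: acttcagatcTGGTGCTActcctcttta

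Of these genes, Ccr9 was called higher in KO mice after DSS, while Trdc was called lower without DSS and Cd7 was lower in KO mice at equal CD3 level in both experiments. Tbx21, Cd244 and Eomes were not called in either comparison. Of the 15 members called after DSS, 1 held a site and 14, among them Cd6, Cd5, Fasl and Cxcr6, held none in the 3′ UTRs searched. A match is a run of letters and was not tested as a binding site.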

How the data were processed

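RNA of mouse colon was extracted with TRIzol and sequenced from NEBNext Ultra Directional libraries. The authors deposited raw read counts per gene for each mouse. Their notes name HISAT2 and DESeq2. The counter, the build and the use of strand are not given in the sources used here, and the gene coordinates match GENCODE vM21 (GRCm38) for 40 of the 40 members in the table without DSS and for 39, all but Cd5, in the other. The gene lengths of Cd5 and Cd6 differ between the tables. Their 14 FPKM columns and their own fold changes and p-values were not used.

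Counts were scaled by TMM and tested with edgeR 4.0.16 (R 4.3.3, glmQLFit with robust dispersion, glmQLFTest) after filterByExpr (minimum count 10, minimum total 15), with Benjamini-Hochberg adjustment over all genes, each experiment alone, and over 14 mice for the difference of effects. The script was checked on simulated counts. Ratios used counts plus 0.5 and a two-sided exact permutation test. Levels per length used the gene lengths of the tables. P-values weigh a difference between the genotypes against the spread between mice. Alternatives were DESeq2 1.42.0, size factors, no filter, a single fit, leaving out mice, a replicate block and a CD3 covariate.

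The members, lists and tests were chosen with earlier results of these data known. Values in every mouse are given for Cd8a, Itgae, members with an unadjusted p under 0.05, and the leading member of each role by reads per kilobase in WT mice without DSS. Trac, outside that rule, is given as the partner of Trdc in a ratio. Of other lists, up to 3 genes with the smallest p are named.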

Additional observations from a re-analysis of the deposited data

Results flagged for a closer look

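In mice without DSS, where each genotype had 4 mice, 1 mouse stood far from its group by Dixon's criterion for 12 of the 108 groups of values looked at. Chance gives about 1 in 20 for independent, normally distributed values. Levels and ratios of genes that rise and fall together are not independent, so that 12 cannot be set against that rate. All 12 were in WT mice, in 9 of 40 levels and 3 of 14 ratios, against 0 of 40 and 0 of 14 in KO mice.

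WT 1 was the high mouse for 9 levels, at 13.7 CPM for Trbc2, 9.25 for Trdc, 8.43 for Cd8b1, 11.7 for Sh2d2a, 8.37 for Cd5, 10.02 for Klrd1, 7.82 for Cxcr6, 3.41 for Prf1 and 1.54 for Eomes. The next WT mouse was at 5.55 CPM for Trbc2 and 2.44 CPM for Trdc. WT 1 was the highest WT mouse for all 40 members, so that these 9 are no independent observations. Leaving out the highest WT mouse raises the log2 fold change of such genes by construction, for Trdc from −1.65 to −0.64. That rise in the 8 tested here is therefore no separate observation.

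WT 1 also had the high Trdc to Trac ratio of its group, 0.832. Without it the log2 difference between the genotypes was −1.35. WT 4 had the high ratio of Cd7 to Cd3e, 2.67, and of Fyn to Cd3e, 2.95. The Cd3e level of WT 4, at 3.18 CPM, was the lowest of the 4 WT mice, while its Fyn level of 9.36 CPM was above that of WT 2 (7.16 CPM).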

How the results depend on the processing

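The direction of the members' median after DSS held under every alternative run, and that without DSS and that of the difference of effects did not. Without DSS, with no filter on low counts 0 members were lower, and 1099 genes passed the unadjusted and 11 the adjusted cutoff, with DESeq2 27. With the CD3 level as a covariate 8 members were higher and 4 lower, and without WT 1 and KO 4, 3 were higher and 0 lower. After DSS, no filter gave 1 member past the adjusted cutoff, 1819 genes past the unadjusted and 46 past the adjusted, and DESeq2 gave 1 member and 66 genes past the adjusted. The CD3 covariate gave 3 members higher and 1 lower, 394 genes past the unadjusted and 1 past the adjusted cutoff, and a median of 0.24 over all 40 members, the 4 CD3 genes of the covariate included. In a single fit of 14 mice 0 members were higher. For the difference of effects, no filter gave 1154 genes past the unadjusted cutoff. Scaling by library size alone gave, after DSS, 1 member lower with no overlap, and 349 genes higher and 1643 lower. The Trdc to Trac difference without WT 1 and KO 4 was −1.23 (exact permutation p = 0.1, the smallest 3 mice against 3 can give). The longer site left 1 member. The cause was not tested where it is not the construction of the alternative.

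Leaving out 1 mouse without DSS gave 0 to 3 members higher, 0 to 1 lower, 2 to 36 above 0, 3 to 5 genes past the adjusted cutoff and a median of −0.54 to 0.75. After DSS it gave 5 to 24 members higher, 0 to 1 past the adjusted cutoff, 483 to 2530 genes past the unadjusted and 0 to 93 past the adjusted cutoff. For the difference of effects it gave 0 to 2 members higher, 17 to 40 above 0, 410 to 1493 genes past the unadjusted and 0 to 1 past the adjusted cutoff, and a median of −0.025 to 1.27. Without DSS the log2 difference ran from −1.72 to −1.35 for Trdc to Trac, −0.20 to 0.13 for Cd8a to Cd3e and −0.26 to 0.15 for Cd160 to Cd3e. After DSS it ran from −0.10 to 0.13 for Itgae, −0.18 to 0.19 for Gzma and −0.062 to 0.46 for Gzmb, each to Cd3e, and −0.53 to 0.49 for Cd4 to Cd8a.

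With the replicate number as a block, 0 members were lower without DSS, since Trdc had a log2 fold change of −1.32 (unadjusted p = 0.117 from edgeR's quasi-likelihood test). The numbers pair no mice by the labels, and mice of the same number correlated at −0.0303, 0.149, −0.194 and −0.127. For the mice after DSS no paired analysis was possible because their columns carry no number of the labels.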
